A study of Danio rerio with 4 samples.

Results

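The adhesion genes described here are the integrin subunits and the cytoplasmic proteins that tie integrins to actin, namely the kindlins, talins, tensins, vinculins, parvins and PINCH proteins. These families were chosen with earlier results of these data known. Their genes were taken from a bulk RNA-seq table of cryoinjured zebrafish ventricles by name. Every gene whose symbol begins with itga, itgb, fermt, tln, tns, vcl, parv or lims was included. This gave 57 of 20984 genes, of which 51 averaged 10 or more normalized counts across the 4 libraries and were tested. The 4 libraries came from single ventricles of 2 *cd74a; cd74b* mutants and of 2 wild types, with 1 female and 1 male per genotype, and the sources do not say which library is which sex. Mutants were homozygous for small CRISPR-Cas9 deletions of 5 bp in *cd74a* (allele bns454) and 25 bp in *cd74b* (allele bns456), both predicted to truncate the protein, and 1 allele of each gene was studied. All fish were AB strain adults aged 3 to 12 months, and all ventricles of both genotypes had been cryoinjured, by touching the exposed ventricle with a probe cooled in liquid nitrogen. The study's text places collection at 120 hours post-cryoinjury (hpci), whereas the series' design text gives 7 days. Both genotypes were bred from sibling batches crossed to double heterozygotes. Cd74, the invariant chain, chaperones MHC class II molecules on their way to the cell surface. The comparison between genotypes was made to examine these mutants further as a model in which antigen presentation is impaired.

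Integrins are cell surface receptors made of 1 alpha and 1 beta subunit. The pair decides which matrix protein or counter-receptor is bound, while the short tail of the beta subunit recruits talin and kindlin, which together switch the receptor to its active state. Vinculin and tensin then connect the cluster to actin, and the complex of integrin-linked kinase, PINCH and parvin stabilizes it. In the heart these receptors hold cardiomyocytes and endocardial cells to their matrix, and in the blood they serve leukocyte arrest and thrombocyte aggregation.

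The values are normalized counts, that is, reads per gene divided by a size factor for each library and rounded to whole numbers. They summed to 4198389 and 4382529 in the mutants and to 4278663 and 4123819 in the wild types. The targeted genes were lower in both mutants, with 408 and 401 against 837 and 913 for *cd74a* and 131 and 117 against 622 and 678 for *cd74b*. Cardiomyocyte markers of the labelled tissue were present in every library, as shown by *myl7*, a myosin light chain, with 1043 and 1209 in mutants and 970 and 1040 in wild types. The highest value of any gene in any library was 6864, a narrow range for whole-heart mRNA. Whether duplicate reads were removed before counting is not given in the sources used here, and what that would mean for abundant genes was not tested. Differences were tested with limma on log2(normalized count + 1), with Benjamini-Hochberg adjustment over the 16065 tested genes. Calls required an adjusted p-value under 0.05 together with a log2 fold change of 0.59 or more in size. Fold changes are mutant over wild type, so negative values mean lower in mutants, and the added 1 makes them too small for sparse genes. Permuting 2 against 2 ventricles exactly gives no p-value under 0.33 for any 1 gene, and limma reaches smaller values by borrowing variance from the other genes. SE stands for limma's standard error.

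Adhesion genes were lower in *cd74a; cd74b* mutants more often than higher. Of the 51 tested members, 15 were called lower (29.4%, against 7.44% of all tested genes) and 0 were called higher (against 2.70% of all tested genes). At an unadjusted p-value under 0.05, limma placed 24 members lower and 1 higher, against 2769 lower and 1885 higher of all 16065 tested genes. The called genes were the beta subunits *itgb1b*, *itgb1b.1*, *itgb3a*, *itgb3b*, *itgb4* and *itgb7*, the alpha subunits *itga1*, *itga4*, *itga9*, *itgae.2* and *itgav*, the kindlin *fermt2*, the talin *tln2b* and the tensins *tns1b* and *tns2a*. For 25 of the 51 members the mutants were both below the lower wild type, against 29.4% of all tested genes, and for 8 both were above the higher wild type, against 30.5%. The median log2 fold change was -0.47 over the tested members and 0.03 over all tested genes. Summed over all 57 members, the normalized counts were 18275 and 17511 in mutants and 23591 and 21340 in wild types. All calls depended on having both ventricles of each genotype and on the filter. No gene of the table was called when any 1 ventricle was left out or when the filter on low values was removed. Without the filter, 24 of the 57 members and 5015 of all 20984 genes had an unadjusted limma p-value under 0.05. Without the mean-variance trend, limma called 2 members, *fermt2* and *tns2a*.

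**Figure D1:**
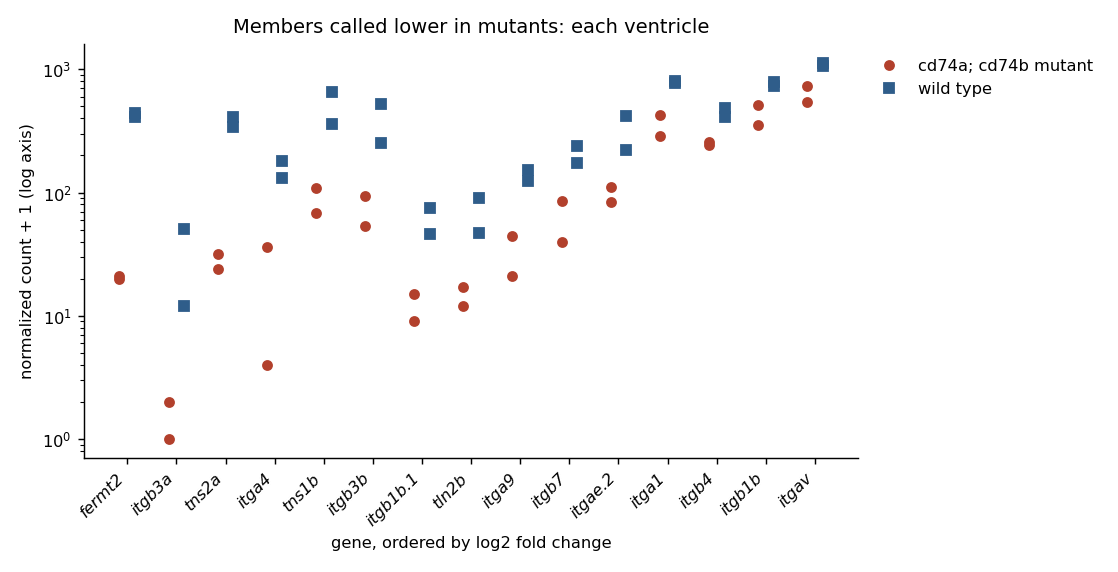
Normalized count + 1 (log axis) of the 15 members called lower, with 1 point per ventricle, circles for *cd74a; cd74b* mutants and squares for wild types, ordered by log2 fold change from *fermt2* to *itgav*. In each gene both mutants lie below both wild types, and the gap narrows from *fermt2* (20 and 19 against 442 and 410) to *itgav* (733 and 539 against 1127 and 1060).

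The kindlins bind the tails of beta subunits next to talin, and *fermt2* encodes the form of most solid tissues, including the heart. Its position is chromosome 17, 50701748 to 50787754, plus strand, in the danRer11 assembly, to which all positions here refer. *fermt2* had 20 and 19 normalized counts in the mutants and 442 and 410 in the wild types. Each genotype was tight and the groups were far apart, which gave a log2 fold change of -4.38 (SE 0.24, limma adjusted p-value 0.0033), or 20.8-fold lower on the log2(normalized count + 1) scale. Dropping any 1 ventricle left the estimate between -4.43 and -4.33. The kindlin of blood cells is present in 2 copies, and both had mutants below wild types without being called. *fermt3a* had 125 and 148 in mutants and 283 and 214 in wild types (log2 fold change -0.85, SE 0.22, limma adjusted p-value 0.052). For *fermt3b* the values were 115 and 73 in mutants and 211 and 152 in wild types (log2 fold change -0.96, SE 0.29, limma adjusted p-value 0.080). *fermt3a* lay so close to the threshold that it was called after rescaling to the same library total (adjusted p-value 0.038) or the same upper quartile (0.034), after cyclic loess (0.042), with a minimum mean of 50 (0.045) and with a pseudocount of 5 (0.048). *fermt1*, the epithelial kindlin, had 44 and 2 in mutants and 12 and 2 in wild types, so the ventricles within a genotype differed more than the genotypes did.

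Talins are the long rods that couple the integrin tail to actin and that start receptor activation. Only 1 of the 4 talin-named genes was called, as lower (25%, against 7.44% of all tested genes). *tln2b* had 16 and 11 in mutants and 46 and 90 in wild types, a log2 fold change of -2.20 (SE 0.47, limma adjusted p-value 0.032). Its other copy, *tln2a*, had 665 and 739 in mutants and 736 and 536 in wild types, with a log2 fold change of 0.16 (95% confidence interval -0.28 to 0.59). *tln1*, the widely used talin, had 1775 and 1744 in mutants against 3054 and 2073 in wild types. The mutants were close to each other and below both wild types, but the wild types spread widely, and the log2 fold change of -0.52 was not called (SE 0.19, limma adjusted p-value 0.13). *tlnrd1*, which encodes a protein resembling part of the talin rod and is not itself a talin, had 110 and 51 in mutants and 289 and 166 in wild types (log2 fold change -1.53, SE 0.41, limma adjusted p-value 0.057), and it was called with a replicate block (adjusted p-value 0.035), with a minimum mean of 50 (0.048) and after rescaling to the same total (0.0499) or upper quartile (0.047).

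Tensins bind actin and, through a phosphotyrosine-binding domain, integrin tails, and they mark the long, mature adhesions along fibronectin fibrils. Their copies differed widely in their values. *tns2a* (chromosome 23, 10469955 to 10587257) had 31 and 23 in mutants and 338 and 411 in wild types, a log2 fold change of -3.75 (SE 0.26, limma adjusted p-value 0.0037). *tns2b*, by contrast, had 1143 and 1406 in mutants and 1196 and 1159 in wild types, and its log2 fold change of 0.11 had a 95% confidence interval from -0.25 to 0.46. *tns1b* (chromosome 9, 47436010 to 47654204) had 107 and 67 in mutants and 361 and 658 in wild types, with a log2 fold change of -2.51 (SE 0.34, limma adjusted p-value 0.011). *tns1a* had 1575 and 1616 in mutants and 1373 and 965 in wild types. Both mutants lay above both wild types there, and it was the 1 member with an unadjusted p-value under 0.05 in the upward direction, but its log2 fold change of 0.47 was not called (SE 0.19, limma adjusted p-value 0.15). In the third family, *tns3.1* was sparse, with 8 and 2 in mutants and 32 and 13 in wild types (log2 fold change -2.05, limma adjusted p-value 0.15, with estimates of -2.84 to -1.26 when 1 ventricle was left out), and *tns3.2* overlapped between genotypes, with 308 and 227 against 320 and 272.

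Of the 5 tested collagen-binding alpha subunits 1 was called lower, and of the 4 alpha subunits that recognize the RGD motif of fibronectin, vitronectin or fibrinogen 1 was called lower (20% and 25%, against 7.44% of all tested genes). *itga1* (chromosome 10, 8730988 to 8841038), a collagen-binding alpha subunit, had 427 and 285 in mutants and 770 and 806 in wild types, a log2 fold change of -1.17 (SE 0.21, limma adjusted p-value 0.019). The other 4 tested collagen-binding subunits, *itga10*, *itga11a*, *itga11b* and *itga2.3*, had log2 fold changes from -0.75 to 0.47, and none was called. *itgav* (chromosome 9, 11597500 to 11655031), the alpha subunit of vitronectin receptors, had 733 and 539 in mutants and 1127 and 1060 in wild types, a log2 fold change of -0.80 (SE 0.18, limma adjusted p-value 0.035). *itga5*, the alpha subunit of the main fibronectin receptor, had 1893 and 2089 in mutants and 1920 and 1663 in wild types. The genotypes overlapped, and the log2 fold change of 0.15 had a 95% confidence interval from -0.18 to 0.49. *itga8* was low, at 31 and 20 against 14 and 15 (log2 fold change 0.74, limma adjusted p-value 0.35). The 3 tested laminin-binding alpha subunits overlapped between genotypes, with log2 fold changes of -0.25 for *itga3b*, -0.19 for *itga6b* and 0.20 for *itga6a*. *itgb4* (chromosome 8, 13106760 to 13159587), whose product joins those of *itga6a* and *itga6b* but not of *itga3b* in hemidesmosome-type adhesions, was called lower. It had 240 and 255 in mutants and 410 and 484 in wild types (log2 fold change -0.85, SE 0.17, limma adjusted p-value 0.025).

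The beta-1 subunit, which joins the largest number of alpha subunits, is represented by 4 genes. *itgb1b* (chromosome 2, 43577294 to 43583896) had 514 and 353 in mutants and 785 and 735 in wild types, a log2 fold change of -0.83 (SE 0.20, limma adjusted p-value 0.042). *itgb1b.1*, in the same tandem cluster, had 14 and 8 in mutants and 45 and 74 in wild types (log2 fold change -2.34, SE 0.49, limma adjusted p-value 0.029). *itgb1b.2*, the third gene of the cluster, overlapped between genotypes at 40 and 23 against 30 and 21. *itgb1a* had 1174 and 1289 in mutants but 140 in the first wild type and 1892 in the second. It thus rested on 1 library, since its log2 fold change of 1.25 (SE 0.99, limma adjusted p-value 0.44) became -0.62 without the first wild type and 3.13 without the second. The difference between the wild types, 3.75 on the log2 scale, was the widest gap within a genotype after *fermt1* in the mutants (3.91). No cause for the low value was tested. Reads that align to several regions were excluded by the authors, so the counts of tandem copies are uncertain wherever their sequences are identical.

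The thrombocyte fibrinogen receptor and other beta-3 receptors gave unequal values for their subunits. *itgb3b* (chromosome 12, 26434478 to 26461744) had 93 and 53 in mutants and 521 and 249 in wild types, a log2 fold change of -2.34 (SE 0.40, limma adjusted p-value 0.017). *itgb3a* had 1 and 0 in mutants and 50 and 11 in wild types (limma adjusted p-value 0.044). The summed values of 1 and 61 give a ratio of 0.016, mutant over wild type, with a 95% exact interval from 0.00041 to 0.095 that treats normalized counts as reads and covers counting error only. The fitted log2 fold change of -4.13 depends on the pseudocount and was -6.15 with a pseudocount of 0.1, where the call was lost (adjusted p-value 0.075), as it was after cyclic loess (0.064), with a replicate block (0.066), without the mean-variance trend (0.074) and without the filter (0.089). It was -3.09 without the first wild type and -5.17 without the second. The alpha partner in thrombocytes, *itga2b*, had 307 and 217 in mutants and 333 and 170 in wild types, with a log2 fold change of 0.12 (95% confidence interval -0.65 to 0.89). Of the 6 tested thrombocyte markers, 0 were called, against 7.44% lower and 2.70% higher of all tested genes. By limma 1 of the 6 had an unadjusted p-value under 0.05, against 4654 of all 16065 tested genes. The log2 fold change was negative for all 6, with a median of -0.32. However, 5 of the 6 overlapped between genotypes. Both mutants were below both wild types for only 1 (16.7%, against 29.4% of all tested genes). The summed counts of these markers were 1130 and 1021 in mutants and 1776 and 1197 in wild types. Within these sums *f13a1b* had 578 and 595 in mutants and 1096 and 508 in wild types. *itgb5*, another partner of the alpha-V subunit, stood at 448 and 425 in mutants and 406 and 398 in wild types, with a log2 fold change of 0.12 (95% confidence interval -0.23 to 0.46).

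Of 5 alpha subunits of leukocytes and other cells, 3 were called lower (60%, against 7.44% of all tested genes). *itga4* (chromosome 9, 44034790 to 44088067), whose product pairs with beta-1 or beta-7 and in mammals binds VCAM-1 and fibronectin, had 35 and 3 in mutants and 178 and 130 in wild types. The mutants lay far below the wild types and far from each other, and the log2 fold change of -3.67 had a large standard error of 0.90 (limma adjusted p-value 0.045). With a pseudocount of 0.1 that call was lost (adjusted p-value 0.057), and without the first or the second mutant the log2 fold change was -5.26 or -2.09. *itgb7* (chromosome 6, 39703232 to 39727244), the lymphocyte beta subunit, had 84 and 39 in mutants and 236 and 174 in wild types (log2 fold change -1.80, SE 0.38, limma adjusted p-value 0.029). *itga9*, whose product pairs with beta-1, had 43 and 20 in mutants and 124 and 150 in wild types (log2 fold change -2.18, SE 0.40, limma adjusted p-value 0.021). Of the tandem pair of alpha-E genes, *itgae.2* had 110 and 83 in mutants and 415 and 219 in wild types (log2 fold change -1.65, SE 0.32, limma adjusted p-value 0.024). *itgae.1* overlapped between genotypes, with 443 and 405 in mutants and 655 and 279 in wild types (log2 fold change -0.01, 95% confidence interval -0.84 to 0.82).

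*itgb2*, the common beta subunit of leukocyte integrins, had 772 and 680 in mutants and 1041 and 1089 in wild types. Its groups were well separated, but its log2 fold change of -0.56 fell short of both thresholds (SE 0.14, limma adjusted p-value 0.0503), and it was called after rescaling to the same upper quartile (-0.62, adjusted p-value 0.033) and after cyclic loess (-0.68, adjusted p-value 0.029). *itgam*, an alpha partner of beta-2 on phagocytes, was not called at 35 and 17 in mutants against 90 and 33 in wild types (log2 fold change -1.13, SE 0.57, limma adjusted p-value 0.24), and its estimate was -0.42 without the first wild type and -1.84 without the second. Some leukocyte markers were lower as well. Of 12 tested markers, 3 were called lower (25%, against 7.44% of all tested genes), namely the macrophage genes *mpeg1.1* and *mpeg1.2* and the neutrophil peroxidase *mpx*, and 0 were called higher. At an unadjusted p-value under 0.05, limma placed 6 lower and 0 higher, against 2769 lower and 1885 higher of all 16065 tested genes. Both mutants were below both wild types for 9 of the 12 (75%, against 29.4% of all tested genes). The log2 fold change was negative for 10 and positive for 2. The 14 leukocyte markers summed to 4409 and 4531 in mutants and to 6677 and 5907 in wild types. The pan-leukocyte gene *ptprc* had 595 and 630 against 846 and 705 and was not called (log2 fold change -0.34, limma adjusted p-value 0.20). The lymphocyte kinase genes *lck* (16 and 15 in mutants, 5 and 28 in wild types) and *zap70* (31 and 29 in mutants, 11 and 50 in wild types) overlapped between genotypes, with log2 fold changes of 0.32 and 0.33. *cd79a*, a further lymphocyte marker, also overlapped (4 and 5 in mutants, 3 and 50 in wild types), with a log2 fold change of -1.38. In a whole ventricle, fewer cells of a type and less RNA per cell cannot be told apart, and the part of leukocyte number in these values was not tested.

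**Figure D2:**
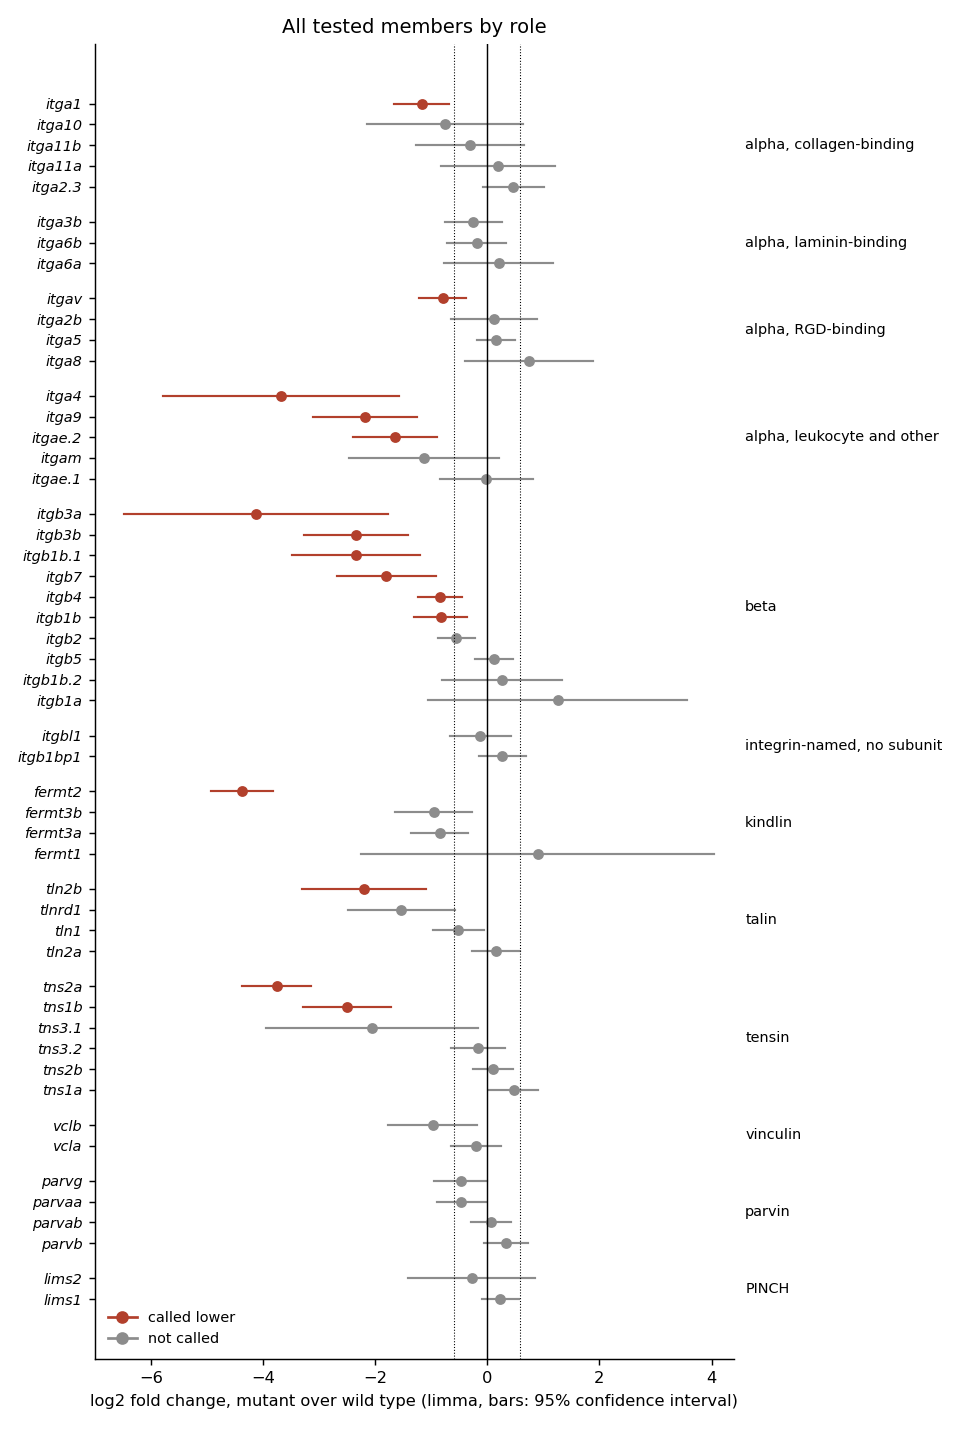
Log2 fold change of mutant over wild type for the 51 tested members, grouped by role, with limma's 95% confidence intervals as bars and dotted lines at -0.59 and 0.59. The 15 called genes all lie left of 0, and intervals are widest for genes with low or uneven values such as *fermt1*, *itgb1a* and *itgb3a*.

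The remaining cytoplasmic linkers were not called, against 7.44% lower and 2.70% higher of all tested genes. An unadjusted limma p-value under 0.05 was found for 1 of 2 vinculins, 2 of 4 parvins and 0 of 2 PINCH genes, all lower. Among all 16065 tested genes, 2769 were lower and 1885 higher at that limit. Of the vinculins, which reinforce the link to actin under load, *vclb* had 512 and 394 in mutants against 1305 and 598 in wild types (log2 fold change -0.97, SE 0.34, limma adjusted p-value 0.11). Its estimate was -0.41 without the first wild type and -1.54 without the second. *vcla* had 186 and 187 against 238 and 193, with a log2 fold change of -0.20 (95% confidence interval -0.65 to 0.25). Among the parvins, actin-binding partners of integrin-linked kinase, *parvaa* had 222 and 188 in mutants and 305 and 262 in wild types, and the blood-cell form *parvg* had 164 and 172 against 266 and 206. The mutants were below the wild types for both genes, with log2 fold changes of -0.47 and -0.48 and limma adjusted p-values of 0.15 and 0.17. *parvb* had 653 and 842 against 614 and 566 (log2 fold change 0.33), and *parvab* had 343 and 351 against 339 and 325 (log2 fold change 0.06, 95% confidence interval -0.30 to 0.42). Both mutants were above both wild types for these genes by small margins. *lims1*, a PINCH gene, had 959 and 992 in mutants and 886 and 781 in wild types (log2 fold change 0.23, 95% confidence interval -0.10 to 0.56), while *lims2* ranged from 110 to 353 in the mutants alone. *itgb1bp1* and *itgbl1*, which carry integrin in their names without being subunits, had log2 fold changes of 0.27 and -0.13 and were not called.

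Copies of the same gene did not always share a call. Zebrafish keep many adhesion genes in duplicate, and 12 families had at least 2 tested copies. In 5 of them (*itgb1*, *itgae*, *tln2*, *tns1* and *tns2*) some copies were called lower and others were not, in 1 (*itgb3*) both copies were called, and in 6 no copy was. The uncalled copies *itgae.1*, *itgb1a*, *itgb1b.2*, *tln2a* and *tns2b* overlapped between genotypes, whereas for *tns1a* both mutants were above both wild types. The called copy had the lower wild-type mean in *tns2* (374.5 against 1177.5), *tns1* (509.5 against 1169), *tln2* (68 against 636) and *itgae* (317 against 467). In *itgb1* the called *itgb1b* and *itgb1b.1* averaged 760 and 59.5 in wild types, and the uncalled *itgb1a* and *itgb1b.2* averaged 1016 and 25.5. Whether the split followed expression level was not tested. The difference in fold change between copies was itself not tested. How often calls split between copies in duplicated families of the whole table was not counted.

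**Figure D3:**
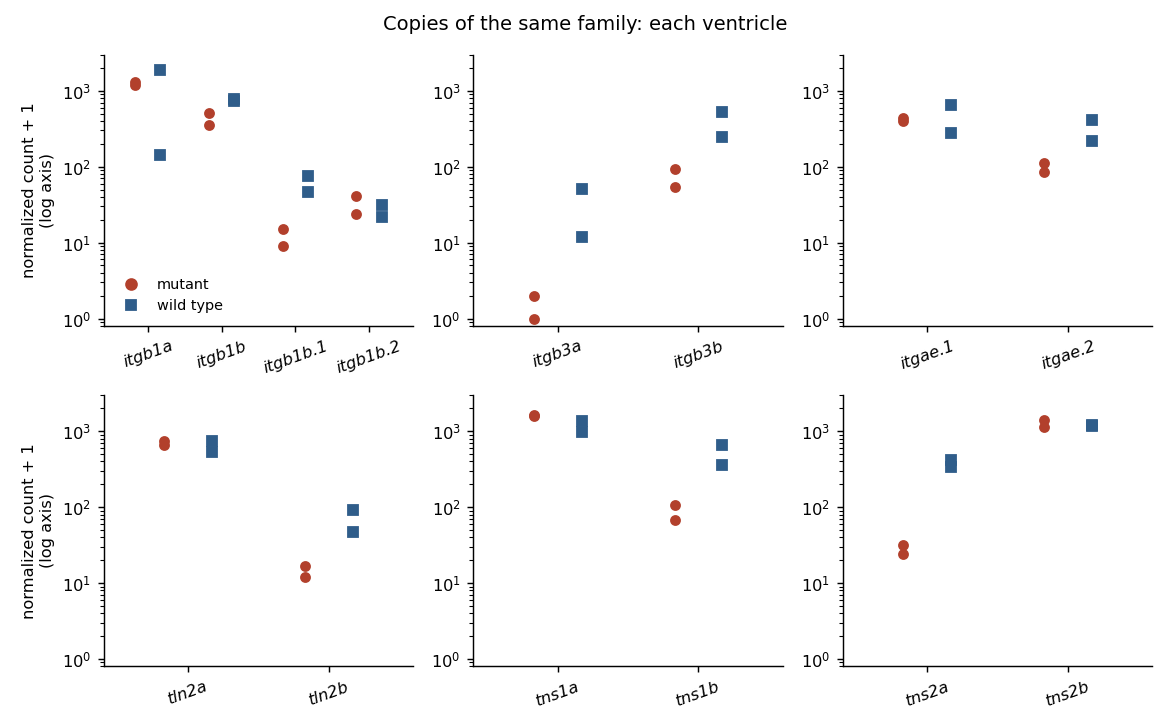
Normalized count + 1 (log axis) in each ventricle for the copies of 6 duplicated families, with circles for mutants and squares for wild types. The *tns2* panel shows 1 copy separated by genotype (*tns2a*, 31 and 23 against 338 and 411) beside 1 that overlaps (*tns2b*, 1143 and 1406 against 1196 and 1159). In the *tns1* panel both copies are separated, with mutants lower for *tns1b* and higher for *tns1a* (1575 and 1616 against 1373 and 965). The *itgb1* panel shows the single wild type at 140 for *itgb1a*.

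The 6 members below the filter were *itga2.1*, *itga2.2*, *itga3a*, *itga6l*, *itgb6* and *itgb8*, with values of 0 to 8 in mutants and 0 to 17 in wild types. *itgb8* was at 0 in both mutants and at 6 and 2 in the wild types, and *itga6l* at 0 in both mutants and at 1 and 2 in the wild types. *itgb6* had 7 and 8 in mutants and 2 in each wild type. The filter kept these 6 genes out of the main test, and without the filter limma called 0 genes of the whole table, with 5015 at an unadjusted p-value under 0.05. Precision followed the level, since the 11 tested members with a mean under 50 had a median standard error of 0.49, against 0.22 for the 40 members at 50 or more. Within genotypes the members also varied more than the table at large. The median absolute log2 difference between ventricles of 1 genotype was 0.44 over the members in the mutants and 0.44 in the wild types, against 0.24 and 0.26 over all tested genes. Values were higher in the first wild type than in the second for 37 of 51 members (72.5%, against 51.1% of all tested genes).

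Partner genes of integrin adhesion were drawn from a list of 83, of which 75 were in the table and 71 were tested. Of these, 13 were called lower (18.3%, against 7.44% of all tested genes) and 0 higher (against 2.70%). At an unadjusted p-value under 0.05, limma placed 20 of the 71 lower and 6 higher, against 2769 and 1885 of all 16065 tested genes. Their median log2 fold change was -0.01. Among the extracellular ligands, 2 of 16 were called lower (12.5%, against 7.44% of all tested genes). *vwf*, von Willebrand factor, had 1939 and 1710 in mutants and 3299 and 2985 in wild types (log2 fold change -0.79, limma adjusted p-value 0.020), and *fn1b*, a fibronectin gene, had 4617 and 3672 against 6096 and 6864 (log2 fold change -0.65, limma adjusted p-value 0.047). The second fibronectin gene *fn1a*, at 4107 and 3304 against 4596 and 4117, and *vcam1b*, the endothelial counter-receptor of alpha-4 integrins, at 1038 and 1328 against 1006 and 1285, were not called.

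Signaling adapters and kinases held 9 of the 13 partner calls, out of 34 tested (26.5%, against 7.44% of all tested genes called lower). *pxnb*, a paxillin gene encoding a scaffold of early adhesions, had 16 and 14 in mutants and 174 and 121 in wild types (log2 fold change -3.19, limma adjusted p-value 0.0072), whereas its copy *pxna* had 685 and 731 against 558 and 535 and was not called. *rapgef1a*, an activator of the small GTPase Rap1, had 27 and 15 in mutants and 184 and 101 in wild types (log2 fold change -2.70, limma adjusted p-value 0.015), and *rapgef1b* had a log2 fold change of -1.32. The Src family kinases *fynb* (38 and 18 against 133 and 136) and *src* (26 and 15 against 84 and 79) were also called, with log2 fold changes of -2.32 and -1.99 and limma adjusted p-values of 0.017 and 0.024. *git2b*, *lpxn*, *dab2* and *rsu1*, the last a partner of PINCH, made up the remaining calls, with log2 fold changes from -1.77 to -0.95. *ilk*, the kinase-like core of the PINCH and parvin complex, had 1026 and 1131 in mutants and 955 and 851 in wild types and was not called (log2 fold change 0.26, limma adjusted p-value 0.28). Among 21 actin linkers, the talin-binding *kank4* (93 and 56 against 401 and 529, log2 fold change -2.66, limma adjusted p-value 0.0070) and *kank2* (178 and 191 against 293 and 376, log2 fold change -0.85, limma adjusted p-value 0.037) were called lower. That was 9.52% of the actin linkers, near the 7.44% of all tested genes.

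**Figure D4:**
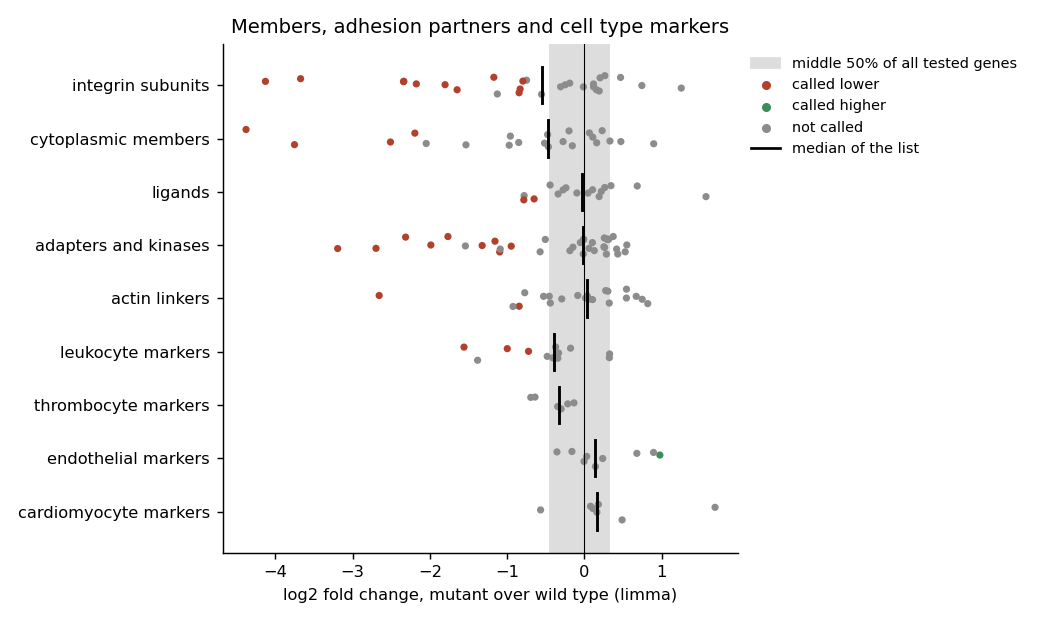
Log2 fold change of mutant over wild type for each tested gene of the integrin subunits, the cytoplasmic members, 3 lists of partners and 4 lists of cell type markers, with black bars at each list's median and grey shading over the middle 50% of all tested genes. The medians of the integrin subunits (-0.56) and of the cytoplasmic members (-0.47) lie left of those of the ligands (-0.03), adapters and kinases (-0.01) and actin linkers (0.04). Those of the leukocyte (-0.39) and thrombocyte (-0.32) markers lie near the members, and those of the endothelial (0.14) and cardiomyocyte (0.16) markers right of 0. Marker lists not drawn had medians of -0.68 (erythrocyte), 0.04 (epicardial and fibroblast) and 0.17 (mural).

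In the pathway annotation deposited with the counts, 29 of 200 tested genes of the KEGG focal adhesion pathway were called lower (14.5%, against 7.44% of all tested genes) and 3 higher (against 2.70% of all tested genes). Members of the families described here made up 7 of the 29, and 12.4% of the other 177 genes were lower. Of the 55 tested genes of ECM-receptor interaction, 11 were called lower (20%, against 7.44% of all tested genes) and 1 higher (against 2.70%). Members made up 7 of the 11, and 10.5% of the other 38 genes were lower, near the 7.44% of all tested genes. The study ran its own pathway enrichment on genes called in these same samples, so these counts are not independent evidence of direction.

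Outside the leukocyte list, 1 endothelial marker was called higher and 1 erythrocyte row lower. Of 9 endothelial and endocardial markers, 0 were called lower and 1 higher (against 7.44% and 2.70% of all tested genes). The higher gene was *pecam1*, with 542 and 529 in mutants and 285 and 259 in wild types. The summed counts of the 9 markers were 7808 and 7711 in mutants against 7393 and 7549 in wild types. None of 7 cardiomyocyte marker rows was called by limma in either direction, against 7.44% lower and 2.70% higher of all tested genes. An unadjusted limma p-value under 0.05 was found for 2 of the 7, against 4654 of all 16065 tested genes. The 7 rows summed to 8620 and 9838 in mutants and to 9935 and 10405 in wild types. The order of these sums followed *ttn.2*, with 3659 and 4094 in mutants and 5681 and 5793 in wild types. Its log2 fold change of -0.57 fell short of the limit (limma adjusted p-value 0.042). The other 6 rows had positive log2 fold changes, and the median of the list was 0.16. The 7 epicardial and fibroblast markers (12625 and 12968 against 11554 and 12232) and the 6 mural markers (4098 and 3810 against 4044 and 3241) also had 0 calls by limma. An unadjusted limma p-value under 0.05 was found for 2 and 1 of them, against the same 4654 of 16065. At the shares of all tested genes, lists of 6 or 7 would hold few calls. Of 5 erythrocyte rows, 1 *hbba1* row was called lower (20%, against 7.44% of all tested genes). The other *hbba1* row overlapped between genotypes, with 200 and 229 in mutants and 213 and 274 in wild types (log2 fold change -0.17). Both mutants were below both wild types in 4 of the 5 (80%, against 29.4% of all tested genes). The median log2 fold change was -0.68 (-0.39 over the leukocyte markers), and the sums were 1884 and 1871 in mutants against 2375 and 4581 in wild types. The second wild type had 2002 for *slc4a1a* and 1580 for *alas2*, against 700 and 901 in the first. No listed marker found in the table was at 0 in all libraries. What the narrow range of values in this table means for the sums of abundant markers was not tested, so these sums are no measure of cell content. The part of cell type proportions in the adhesion values was not tested.

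The called members were spread over the genome. None lay on the chromosome of *cd74b* (21), and of the 57 members only *fermt3b* and *itga6l* shared chromosome 14 with *cd74a*, at 42.9 and 38.5 Mb from it. For 5 of the 15 called members another called gene lay within 100 kb. How often this holds for genes of the whole table was not counted. The nearest were *epc1b*, called higher, at 1.68 kb from *itgb1b* and 14.0 kb from *itgb1b.1*, and *zc3h6*, called lower, at 24.3 kb from *itga9*. The nearest called gene to *fermt2* was the clone-named *si:ch211-235i11.5*, called higher, at 279 kb.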

How the data were processed

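The authors made stranded mRNA libraries from the RNA of individual ventricles and sequenced them as single-end reads. They trimmed the reads with Trimmomatic 0.39, aligned them to danRer11 with STAR 2.7.9a, and counted those touching exons with featureCounts 2.0.2, leaving out reads shared by several genes or placed at several regions. Normalization by the authors used DESeq2 1.30.0. The deposited value is therefore a score, a size-factor-normalized count rounded to an integer. Whether strand was used in counting, or duplicates removed, is not given in the sources used here. Coordinates are those of the deposited table.

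Samples were grouped by their labelled genotype. Normalized, rounded values do not suit a count model, so limma 3.58.1 in R 4.3.3 (mean-variance trend, prior degrees of freedom 5.33) was fitted to log2(normalized count + 1) for genes averaging 10 or more, with the thresholds of the study's methods. The fit was tested on simulated data with an assumed spread between libraries, which cannot show how many of the calls made here are right. Tables were made with Python 3.11.15. Read totals were not derived, so precision is given by limma's SE. Members, gene lists and tests were chosen with earlier results of these data known. By rule, the text names all called members, all cytoplasmic members, the 2 most abundant uncalled subunits of each class, copies of called members, members under the filter, the 5 partner genes called lower with the largest change, the targeted genes and called neighbours of called members, of which only some are printed. Other genes were named after their values were seen. Alternatives were no trend, a minimum mean of 50 or none, a pseudocount of 0.1 or 5, 3 other scalings, a fold-change limit of 1, a block for the replicate number, and leaving out each ventricle.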

Additional observations from a re-analysis of the deposited data

How the results depend on the processing

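Of the 15 members called lower, all were called again with a pseudocount of 5 and after rescaling to the same total or upper quartile, 14 after cyclic loess, 13 with a pseudocount of 0.1, and 12 with a minimum mean of 50, which leaves the other 3 untested. A fold-change limit of 1 kept 12, without *itgav*, *itgb1b* and *itgb4*, whose changes are smaller than that. Counts changed by more than 1.5 times as follows. With no filter, 0 members, 0 partners and 0 of all genes were called by limma (24 members, 24 partners and 5015 genes had an unadjusted p-value under 0.05), and the adjusted p-values of the 15 genes then lay between 0.052 and 0.13. Without the mean-variance trend, 2 members, 3 partners and 543 genes were called. With any 1 ventricle left out, the lone ventricle of a genotype being assumed to vary like the others, 0 members, 0 partners and 0 genes were called by limma, where 15 to 22 members, 16 to 22 partners and 2148 to 3323 genes had an unadjusted p-value under 0.05. A replicate block gave 11 members, 10 partners and 955 genes (740 lower and 215 higher), against 15, 13 and 1630 (1196 lower and 434 higher) without it. Of the 11 members called with the block, 10 were among the 15, *tlnrd1* was added, and *itgav*, *itgb1b*, *itgb1b.1*, *itgb3a* and *tln2b* were not called. Ventricles of the 2 genotypes have only a number in common, and the correlation of their deviations by number was -0.066 over 16065 genes. Of the 15 called members, 0 changed direction in any alternative. Only the 3 other scalings could have reversed a sign, because both mutants lay below both wild types in each of these genes. Among uncalled members, the log2 fold change crossed 0 after cyclic loess for *parvab* (-0.036) and *tns2b* (-0.014). Leaving out 1 ventricle at a time gave ranges across 0 for *fermt1* (-1.06 to 2.85), *itga11a* (-0.091 to 0.47), *itga2b* (-0.37 to 0.60), *itga3b* (-0.52 to 0.019), *itga6a* (-0.46 to 0.86), *itga6b* (-0.44 to 0.060), *itgae.1* (-0.63 to 0.60), *itgb1a* (-0.62 to 3.13), *itgb1b.2* (-0.12 to 0.65), *itgbl1* (-0.37 to 0.12), *lims2* (-1.11 to 0.56), *tln2a* (-0.070 to 0.39), *tns2b* (-0.043 to 0.26) and *tns3.2* (-0.38 to 0.062), and a range of -0.62 to 0.00 for *itga11b*. The causes were not tested. The median standard error was 0.49 over the members with a mean under 50 and 0.22 over the others, so sparse genes are measured less precisely.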
